A study of Homo sapiens with 14 samples.

Results

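Windows of 100 kb in which BAF regions of naïve human embryonic stem cells (hESCs) were most crowded were examined. The 22 autosomes of hg38 were divided into fixed windows from the first base, and the 300 windows with the highest number of naïve-only minus primed-only BAF regions were taken, of 28760 in all (1.04%). A BAF region is a merged stretch of BRG1 and BAF155 peaks of one state, and it is naïve-only or primed-only if no region of the other state shares at least 25% of either region with it. The windows were therefore chosen by the BRG1 and BAF155 calls, and their counts of these peaks describe the choice and test nothing. For brevity they are called naïve-dense windows. The 300 windows at the other end of the same ranking are called primed-dense windows and were used for contrast.

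The binding data come from ChIP-seq (sequencing of immunoprecipitated chromatin) in WIBR3 cells, a single established hESC line. Primed cells were grown in conventional hESC medium with fetal bovine serum, serum replacement and FGF2, and naïve cells in 5i/L/A, and both were kept on mouse embryonic fibroblast feeders. Peak lists of BRG1, BAF155, BRM and SOX2 were used from each state. The list of the second SOX2 library of a state held the same coordinates as that of the first, in 1940 of 1940 naïve and 9290 of 9290 primed peaks, so both were counted as 1 sample. Every group therefore had 1 library, no difference below has a replicate check, and the intervals cover counting error only.

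BAF complexes are ATP-dependent remodellers that slide or evict nucleosomes and thereby open regulatory DNA. BRG1 (SMARCA4) and BRM (SMARCA2) are their alternative ATPases, and BAF155 (SMARCC1) is a core scaffold subunit. Naïve hESCs resemble the epiblast before implantation and primed hESCs a later stage. The study proposes that the transcription factor SOX2 is largely primed-specific in human cells, with weak binding in naïve hESCs. The BRM and SOX2 lists took no part in choosing the windows, although BRM shared its input library with BRG1 and BAF155 in the study's design.

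The DNA under BRM peaks of naïve-dense windows is shown first, because naïve BRM differed most among the lists that the rule did not use. The study found most naïve BRM peaks shared with BRG1 or BAF155 peaks, so this list is not independent of the rule. The central 200 bp of the naïve BRM peak with the highest fold enrichment over input are given for 5 of the 6 highest windows, followed by those for the windows of TFAP2C, DPPA3 and VENTX, which were added after their values were seen. All are hg38, plus strand, 5′ to 3′. Capitals mark matches on either strand to short motifs named for the KLF, TFAP2, SOX, ZIC and TEAD families, whose letters are given with their counts further on.
BRM site of window 1, chr3:196184726-196184925: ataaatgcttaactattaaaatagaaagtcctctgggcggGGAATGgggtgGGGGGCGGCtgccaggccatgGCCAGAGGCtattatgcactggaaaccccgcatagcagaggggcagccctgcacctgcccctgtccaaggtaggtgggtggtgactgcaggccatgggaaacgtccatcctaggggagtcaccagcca
BRM site of window 2, chr19:731516-731715: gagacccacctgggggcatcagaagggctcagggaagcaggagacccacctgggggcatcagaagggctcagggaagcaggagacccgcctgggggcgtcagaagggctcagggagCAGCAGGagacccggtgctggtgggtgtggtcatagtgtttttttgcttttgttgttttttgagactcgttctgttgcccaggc
BRM site of window 4, chr9:131336282-131336481: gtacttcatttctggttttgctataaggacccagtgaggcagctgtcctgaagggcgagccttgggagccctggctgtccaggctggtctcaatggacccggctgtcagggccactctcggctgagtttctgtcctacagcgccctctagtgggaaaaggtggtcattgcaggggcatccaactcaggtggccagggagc
BRM site of window 5, chr6:41682134-41682333: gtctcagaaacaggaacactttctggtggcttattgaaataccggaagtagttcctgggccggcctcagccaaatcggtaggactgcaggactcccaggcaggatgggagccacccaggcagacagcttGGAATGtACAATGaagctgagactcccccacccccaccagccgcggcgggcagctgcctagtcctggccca
BRM site of window 6, chr12:121638725-121638924: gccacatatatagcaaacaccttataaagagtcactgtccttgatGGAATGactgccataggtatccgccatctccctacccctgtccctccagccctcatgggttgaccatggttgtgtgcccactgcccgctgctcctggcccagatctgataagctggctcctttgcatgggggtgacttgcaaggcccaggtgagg
BRM site of the TFAP2C window, chr20:56630561-56630760: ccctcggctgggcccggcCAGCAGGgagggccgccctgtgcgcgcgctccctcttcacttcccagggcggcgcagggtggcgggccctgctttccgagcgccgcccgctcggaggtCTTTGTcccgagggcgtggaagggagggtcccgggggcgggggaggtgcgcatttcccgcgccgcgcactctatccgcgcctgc
BRM site of the DPPA3 window, chr12:7762886-7763085: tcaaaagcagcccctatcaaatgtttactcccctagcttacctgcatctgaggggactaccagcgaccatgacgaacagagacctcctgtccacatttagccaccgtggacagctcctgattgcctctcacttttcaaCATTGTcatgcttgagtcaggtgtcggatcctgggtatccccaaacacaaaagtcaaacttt
BRM site of the VENTX window, chr10:133232270-133232469: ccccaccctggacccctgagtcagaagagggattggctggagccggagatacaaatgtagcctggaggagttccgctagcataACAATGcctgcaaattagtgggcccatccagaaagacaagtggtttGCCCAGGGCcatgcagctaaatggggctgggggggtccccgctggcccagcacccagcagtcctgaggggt

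The site of window 1 lay between genes, 26.6 kb from the nearest protein-coding start, that of ZDHHC19. It held a TEAD match at bases 41 to 46, a KLF match at bases 52 to 60 and a TFAP2 match at bases 73 to 81. The site of window 2 lay within PALM near an annotated transcript start and held a ZIC match only. The site of window 5 was intergenic and held a SOX and a TEAD match, and the intronic site in ORAI1, from window 6, held a TEAD match alone. No searched motif was found in the intronic site in PLPP7 from window 4. At TFAP2C the site lay 1.36 kb from the 5′ end of the gene, close to the start of another of its transcripts, with a ZIC and a SOX match. The DPPA3 window's site was intergenic, 2.23 kb from the start of NANOGNB, with a SOX match, and the VENTX window's site was 2.15 kb from the start of UTF1, with a SOX and a TFAP2 match. Of these 8 sites, those of window 5, TFAP2C and VENTX fell on BAF regions common to both states, and the other 5 on naïve-only regions.

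The difference that ranked the windows ran from 23 to 11 with a median of 13. Naïve-only regions numbered 11 to 24 per naïve-dense window, with a median of 14. Primed-only regions were missing from 166 of the windows, 91 windows had 1 and 43 had 2 or more. The windows held 4217 of 47111 autosomal naïve-only regions (8.95%), 196 of 28920 primed-only regions (0.678%) and 1009 of 26897 common regions (3.75%). Primed BAF was seldom absent, since 284 of 300 had a primed BAF155 peak. At the edge of the choice the difference no longer separated windows. It was 11 in 84 windows, of which the tie rule, which favours low chromosome numbers, took 61 and left out 23. The last window taken, chr18:58800001-58900000, held the start of ZNF532 and had 13 naïve-only and 2 primed-only regions. The first left out, chr19:1900001-2000000 with SCAMP4, ADAT3 and CSNK1G2, had 12 and 1. Another 129 windows stood at 10. In the primed-dense windows the ranking was shallower, from 12 to 4 more primed-only than naïve-only regions.

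The choice rested on many weak calls. In naïve-dense windows naïve-only regions had a median highest fold enrichment of 2.85 (authors' value, linear ratio over input), against 2.92 for naïve-only regions elsewhere. Common regions in the same windows had 3.50. That value is the highest over peaks of both states in wider regions (median 1499 bp against 565 bp). It is therefore not a like measure. When BAF peaks were required to reach −log10 q of 3, 11.8 of the 30 Mb stayed in the choice, and at a fold of 4 only 2 Mb stayed. At that fold the lowest difference taken was 1, so that ties by chromosome number placed 143 of 300 windows on chromosome 1. The primed BRG1 list was also short, with 15611 peaks against 57884 in naïve cells and 58352 for primed BAF155. Ranking by BAF155 alone kept 23.8 Mb and by BRG1 alone 17.1 Mb. By the study's own read totals, from which no value here was taken, the primed BRG1 library was not shallower than the naïve one. Why its list is short was not tested.

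The highest window, chr3:196100001-196200000, contained no protein-coding start. It had 23 naïve BRG1 and 23 naïve BAF155 peaks against 0 primed BRG1 and 3 primed BAF155 peaks, and 8 naïve BRM peaks. The second, chr19:700001-800000, held the starts of PALM, MISP and the splicing regulator PTBP1, with 26 naïve BRG1, 24 naïve BAF155 and 13 naïve BRM peaks. Both windows differed by 23, and in neither did the naïve SOX2 list have a peak.

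MRPL20, a mitochondrial ribosomal protein gene, and 5 more genes started in the third window, chr1:1400001-1500000, with 24 naïve BRG1, 20 naïve BAF155 and 7 naïve BRM peaks. PRRC2B alone started in the fourth, chr9:131300001-131400000, with 26, 23 and 12 peaks of these lists. In the fifth, chr6:41600001-41700000, the only gene start was that of MDFI, which encodes an inhibitor of MyoD family factors, and the counts were 18, 19 and 11. ORAI1, the pore subunit of a store-operated calcium channel, and MORN3 shared the sixth window. The seventh, chr1:202000001-202100000, belonged to ELF3, an ETS factor of epithelial cells and trophoblast, with 19 naïve BRG1, 20 naïve BAF155 and 14 naïve BRM peaks. BRM thus varied from 6 to 14 among windows 4 to 7, whose difference varied from 22 to 20.

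The remaining 5 of the 12 highest held SLC37A3, RAB19 and MKRN1 on chromosome 7, NXN and TIMM22 on chromosome 17, LSM4, PGPEP1, GDF15 and LRRC25 on chromosome 19, no gene start on chromosome 17, and PWWP3A and NDUFS7 on chromosome 19. NXN encodes nucleoredoxin, a redox regulator, and GDF15 a secreted member of the TGFβ superfamily. Their naïve BRM counts were 7, 7, 7, 5 and 4. The window without a gene start, chr17:62100001-62200000, was the only one of the 12 with no primed BRG1 and no primed BAF155 peak, and it also had the fewest naïve BRG1 and BAF155 peaks, 14 of each. None of the 12 had a primed BRM peak, and 5 had a naïve SOX2 peak.

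**Figure D1:**
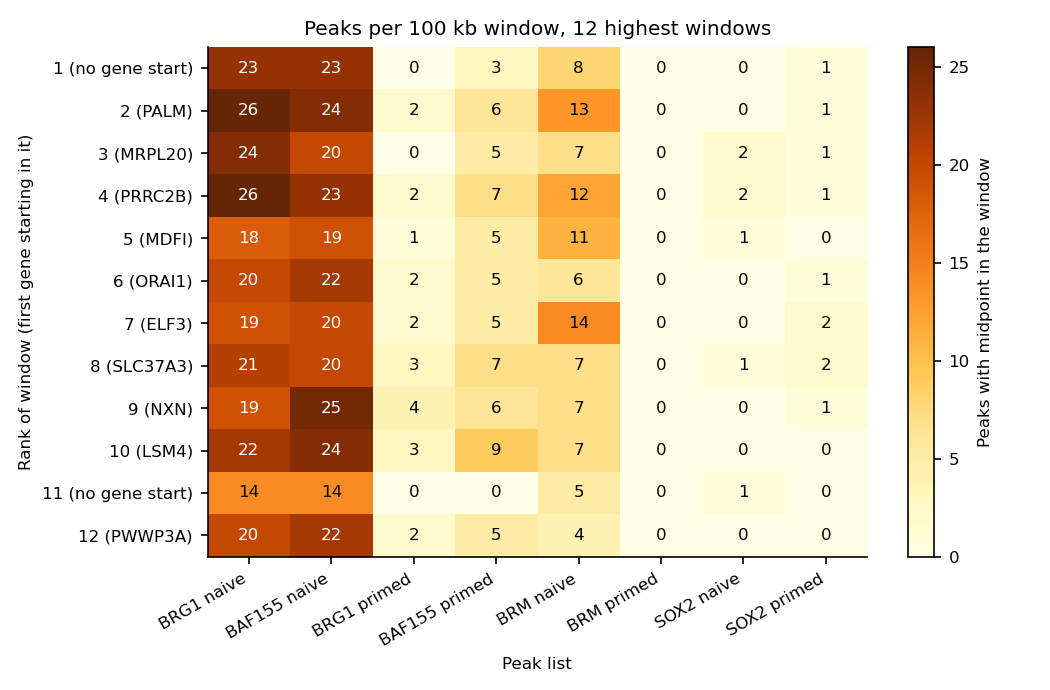
Number of peaks of each list (columns) with their midpoint in each of the 12 highest windows (rows, by rank and the first protein-coding gene that starts there), with colour by the same number. Naïve BRG1 and BAF155 counts lie between 14 and 26, naïve BRM between 4 and 14, and no SOX2 count exceeds 2.

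To ask whether the other ATPase followed the regions that chose the windows, naïve BRM peaks were counted. They were present in 295 of 300 naïve-dense windows (98.3%, exact 95% interval 96.2 to 99.5), where 30.5% of all windows had one. The windows held 1586 naïve BRM peaks with a median of 5 and a range of 0 to 16. That was 5.29 per window against 0.545 in the other 28460 windows, a ratio of 9.71 (exact 95% interval 9.21 to 10.2). The study found most naïve BRM peaks shared with naïve BRG1 or BAF155 peaks, so this ratio is not independent of the rule. Naïve BRG1 and naïve BAF155, which the rule used, had ratios of 7.43 each. Primed-dense windows had 109 naïve BRM peaks, or 0.363 per window. Only 1 of the 167 primed BRM peaks fell in a naïve-dense window, so the BRM counts have no primed counterpart of similar length.

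The strength of the peaks moved with this ratio. BRM peaks in naïve-dense windows had a median fold of 3.16 against 3.28 elsewhere, and 84 of 1586 (5.30%) reached a fold of 4 against 2233 of 15500 (14.4%). With peaks of at least that fold alone the ratio was 3.57 (2.84 to 4.44), and when every list was shortened to the length of its counterpart, which left as few naïve as primed BRM peaks, none fell in a window chosen from the shortened lists.

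The window with the most naïve BRM peaks on the autosomes was itself naïve-dense, chr19:900001-1000000, with 16 BRM peaks and the starts of R3HDM4, KISS1R, ARID3A and WDR18. ARID3A encodes a DNA-binding protein with an AT-rich interaction domain. The ELF3 window had 14, as did 2 windows that were not naïve-dense. Windows with 13 were those of PTBP1, of RCOR1, whose product is a corepressor that binds the demethylase LSD1, and of CTDSP1. TFAP2C, ZMYND8 and the APOBEC3 genes, cytidine deaminases that restrict retroelements, were among those with 11. Of the 372 autosomal windows with at least 6 BRM peaks 127 were naïve-dense (34.1%), and of the 206 with at least 7 there were 85 (41.3%). At the other end, 5 naïve-dense windows had no BRM peak.

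Among single regions, 918 of 4217 naïve-only regions in naïve-dense windows had a naïve BRM peak (21.8%, 20.5 to 23.05), against 13.6% of those in other windows (odds ratio 1.77, Woolf 95% interval 1.64 to 1.92). Common regions, which were not counted by the rule, differed likewise, 49.5% against 31.6% (odds ratio 2.12, 1.87 to 2.40). They were also wider in naïve-dense windows, with a median of 1499 bp against 1104 bp, and their BRM share was not split by width. By density of the window the share was 10.0% where primed-only regions equalled or outnumbered naïve-only ones, 11.7% at a difference of 1 to 2, 14.5% at 3 to 5, 17.2% at 6 to 10, 20.6% at 11 to 14 and 23.1% at 15 and above. It was thus higher in each denser class. The median width of naïve-only regions rose with each class too, from 348 bp in the lowest to 577 bp in the highest. Between naïve-dense windows the share with BRM ranged from 0 to 63.6% with a median of 20.0%, and 15 of the 300 had no naïve-only region with BRM.

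Region width moved with this share. Naïve-only regions had a median width of 565 bp in naïve-dense windows and 411 bp elsewhere. Among regions under 300 bp the share with BRM was 3.58% (2.46 to 5.02) in naïve-dense windows and 4.88% (4.53 to 5.25) elsewhere, the opposite order with intervals that overlap. It was 12.7% and 10.96% from 300 bp to under 600 bp, 23.05% and 17.7% from there to under 1000 bp, and 48.4% and 40.8% at 1000 bp or more, so the higher share was seen in wider regions. With all regions set to 500 bp the odds ratio was 1.52. At promoters, within 1 kb of a transcription start site, it was 2.39 (1.97 to 2.91), and away from them 1.68 (1.54 to 1.83).

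**Figure D2:**
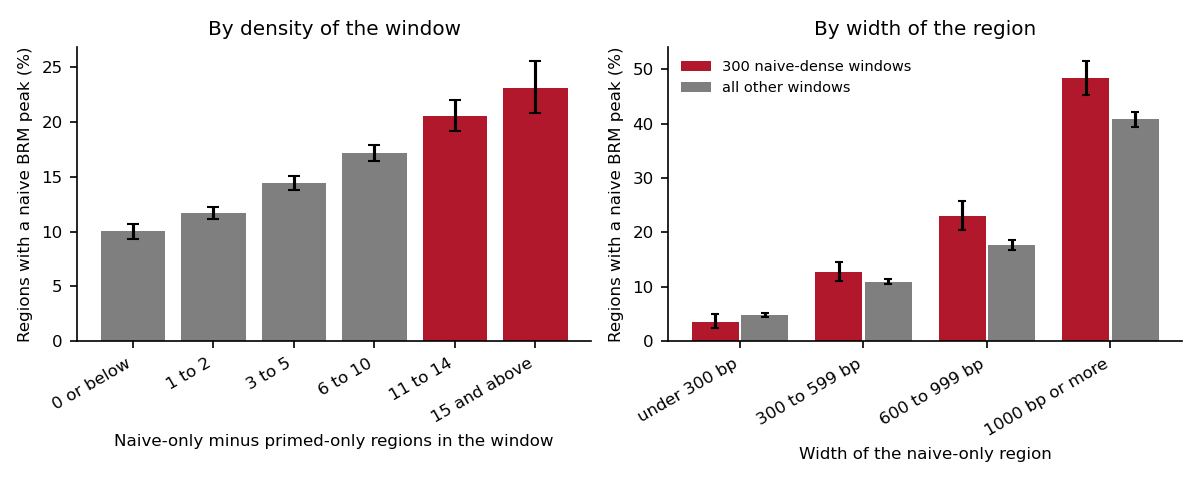
Share of naïve-only BAF regions that have a naïve BRM peak (y axes, in percent), by the difference of the window (left, differences of 11 and above in red, which include the 23 tied windows left out) and by region width (right, naïve-dense windows in red, all others in grey), with exact 95% intervals as bars. The share is 10.0% in the lowest and 23.1% in the highest density class, and among regions under 300 bp it is 3.58% in naïve-dense windows and 4.88% elsewhere.

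SOX2 was sparse in naïve-dense windows and its lists differed in length, with 1843 naïve and 8747 primed peaks on autosomes. Naïve SOX2 had 108 peaks there and was present in 82 windows (27.3%, 22.4 to 32.8), where 5.78% of all windows had a peak. The rate was 0.360 per window against 0.0610 elsewhere, a ratio of 5.91 (4.82 to 7.18). Primed SOX2 had 170 peaks there, in 120 windows (40.0%) against 23.1% of all windows, and its ratio was lower at 1.88 (1.61 to 2.19). Naïve-dense windows were thus richer in SOX2 of both states, and the naïve list by more. In primed-dense windows the order was different, with 17 naïve and 380 primed SOX2 peaks. An excess in naïve-dense windows was not particular to SOX2. Primed BRG1 and primed BAF155, which the rule used, had ratios of 2.79 and 2.15 against other windows. With BAF peaks of at least fold 4 the ratio for primed SOX2 was 0.865 (0.684 to 1.08) and that for naïve SOX2 1.36 (0.884 to 2.00).

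Window by window, 44 naïve-dense windows had more naïve than primed SOX2 peaks, where 2.28% of all windows did, and 88 had more primed peaks, where 20.6% of all windows did. Both states had a peak in 45 windows, naïve cells alone in 37 and primed cells alone in 75. The other 143 had none, as did 21371 of the 28460 windows that were not naïve-dense. Over all windows these combinations were not counted, but a naïve peak was in 5.78% and a primed peak in 23.1%. Both states or naïve cells alone could thus reach at most 5.78%, and primed cells alone at most 23.1%. The naïve to primed count ratio was 0.635 in naïve-dense, 0.202 in other and 0.0447 in primed-dense windows. At the level of regions, 50 of 4217 naïve-only regions had a naïve SOX2 peak (1.19%, 0.881 to 1.56) against 1.28% elsewhere, with an odds ratio of 0.924 (0.690 to 1.24). Common regions in the same windows had naïve SOX2 more often, 52 of 1009 (5.15%, 3.87 to 6.70). In other windows common regions also had it more often than naïve-only ones, 1036 of 25888 (4.00%), so that the odds ratio between naïve-dense and other windows was 1.30 (0.979 to 1.73).

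**Figure D3:**
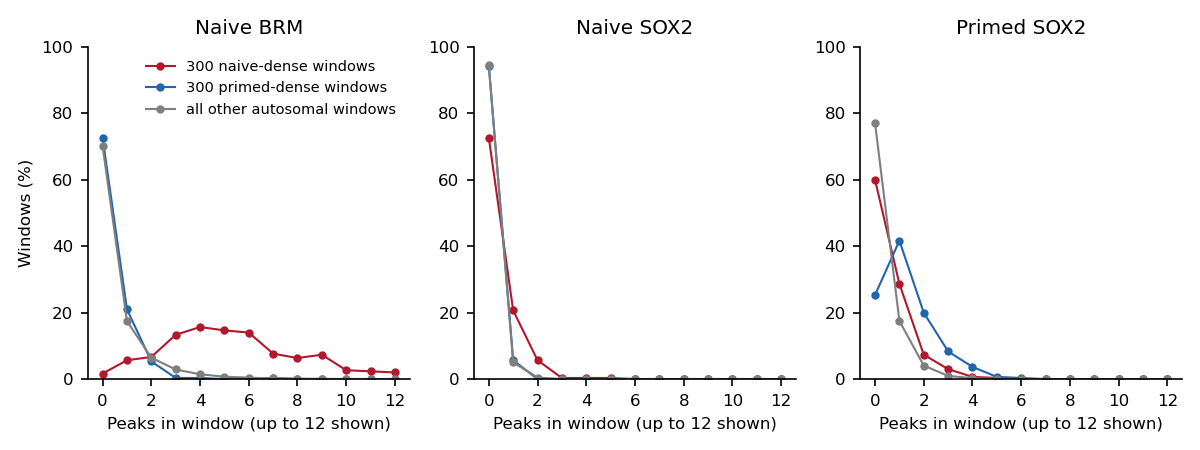
Share of windows (y axis, in percent) by their number of naïve BRM, naïve SOX2 and primed SOX2 peaks (x axes) for naïve-dense (red), primed-dense (blue) and all other autosomal windows (grey, which include the primed-dense ones). A BRM peak is missing from 1.67% of naïve-dense and 72.7% of primed-dense windows, whereas a primed SOX2 peak is present in 40.0% and 74.7%.

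Naïve-dense windows adjoined each other in places. They formed 256 runs, 223 of 1 window, 27 of 2, 4 of 3, 1 of 4 and 1 of 7 windows. Within a window, neighbouring naïve-only regions were a median of 4.36 kb apart, and 10.4 kb in other windows with at least 2, a spacing that the rule itself makes short. The longest run, chr19:400001-1100000, held 119 naïve-only regions, 9 primed-only regions, 69 naïve BRM peaks, no naïve SOX2 peak and 2 primed SOX2 peaks. It contained the starts of 33 protein-coding genes, among them CDC34, an E2 ubiquitin-conjugating enzyme, the neutrophil protease genes AZU1, PRTN3 and ELANE, and ABCA7. The run of 4, chr19:3900001-4300000, had 59 naïve-only regions, 1 primed-only region and 24 BRM peaks, with ZBTB7A, MAP2K2 and SIRT6 among its 12 genes. The run at chr19:1300001-1600000 had 48 naïve-only regions and 19 BRM peaks, with MBD3, a subunit of the NuRD complex, among 13 genes.

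The run at chr19:20000001-20300000 differed from these. It held 3 genes, all zinc finger genes (ZNF682, ZNF90 and ZNF486), with 45 naïve-only regions but only 1 common region, 5 BRM peaks and 6 naïve against 1 primed SOX2 peak. Here 11.1% of naïve-only regions had BRM, and in the longest run 28.6%.

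The fifth run, chr12:7700001-8000000, covered the DPPA3 and NANOG cluster. DPPA3 (Stella) is a maternal factor that guards DNA methylation in the early embryo, and NANOG is a homeodomain factor of the pluripotency network. The run had 45 naïve-only regions, 4 primed-only regions and 15 common regions. There were 47 naïve BRG1 and 55 naïve BAF155 peaks against 8 and 21 in primed cells, and 15 BRM peaks in naïve against 0 in primed cells. SOX2 had 5 naïve and 8 primed peaks there, from autosomal lists of 1843 and 8747. Of the naïve-only regions 12 (26.7%) were mostly multi-copy sequence, which limits how firmly their reads can be placed. The TFAP2C window, chr20:56600001-56700000 and 15th in rank, had 20 naïve-only regions and 1 primed-only region, 11 naïve BRM peaks and no SOX2 peak in either state. TFAP2C is a transcription factor of naïve pluripotency and of trophoblast.

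**Figure D4:**
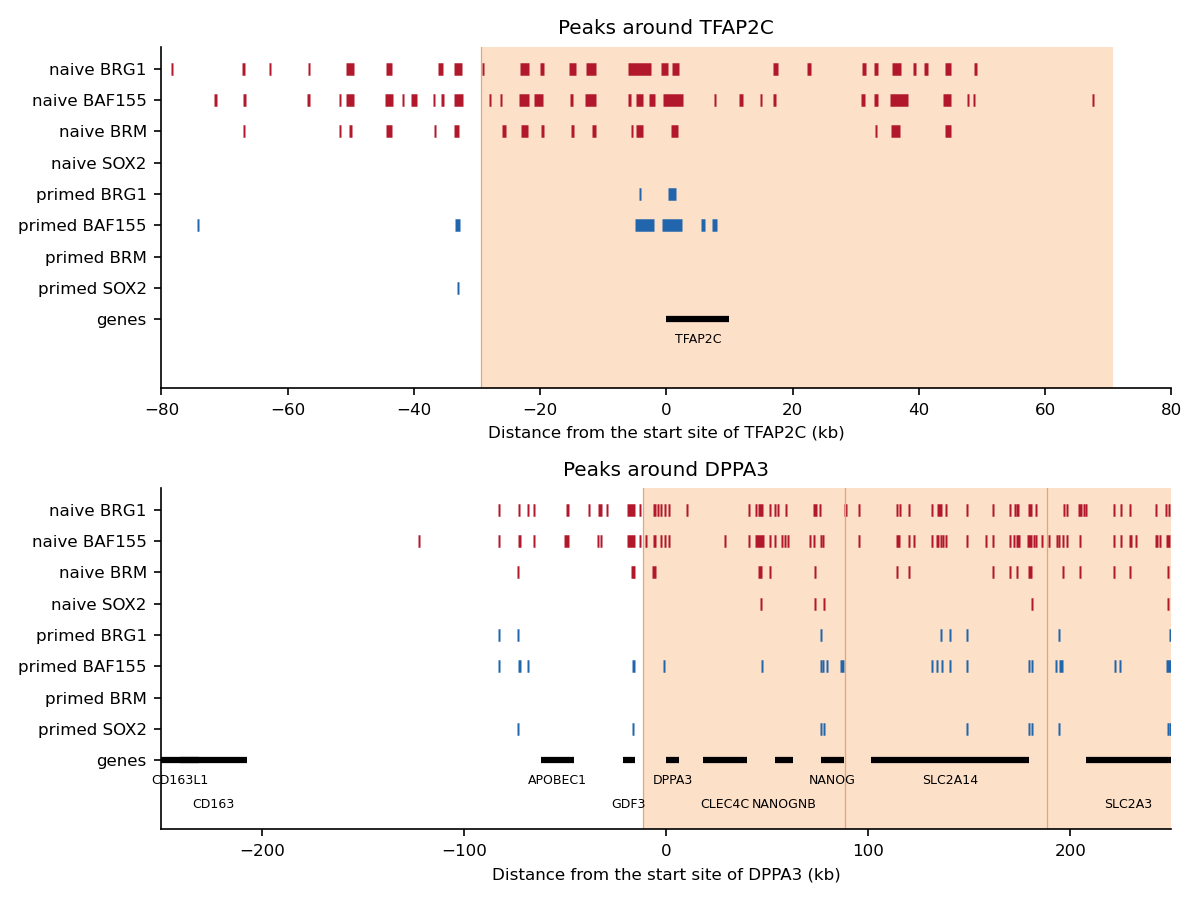
Peaks of each list (rows, naïve in red and primed in blue) by distance in kb from the start of TFAP2C (top) and of DPPA3 (bottom), with naïve-dense windows shaded, protein-coding genes in black and narrow peaks widened to stay visible. The 1 window at TFAP2C holds 11 naïve BRM peaks, the 3 windows from DPPA3 to beyond SLC2A14 hold 15, and no primed BRM peak is seen in either panel.

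Genes were taken by the 5′ end. The naïve-dense windows held 663 of 19111 autosomal protein-coding genes (3.47%). Of 30 naïve and preimplantation markers 9 lay in them (30.0%, 14.7 to 49.4), but in 6 windows, since DPPA2 and DPPA4 shared a window, as did DPPA5, KHDC3L and OOEP. None of the 30 lay in a primed-dense window, but ESRRB, at −4, stood at the edge of that set and was left out by the tie rule alone. The list was drawn up with earlier results of these data known and is no independent evidence of a direction. The difference was above 0 in the windows of 26 of the 30, equal to 0 for KLF4 and below 0 for ESRRB, TBX3 and MAEL. Its median was 8, and 1 over all protein-coding genes.

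In the order of their windows, TFAP2C had a difference of 19. DPPA2 and DPPA4, SAP-domain proteins of early embryos, had 14, with 15 naïve-only regions and 1 primed-only region, 5 naïve BRM peaks, and 2 naïve and 3 primed SOX2 peaks. DPPA3 also had 14, with 4 BRM peaks. DPPA5 shared its window with KHDC3L and OOEP, which encode parts of the subcortical maternal complex of the oocyte, and the window had 12 naïve-only regions, no primed-only region and 5 BRM peaks. VENTX, a homeobox gene, had 12 and 0 with 4 BRM peaks. HORMAD1, a meiotic chromosome axis gene, was at the edge with 11 and 0 and 1 BRM peak. NLRP7 and NLRP2, which share a window with 11 and 0, were left out by the tie rule alone.

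Of 28 trophoblast genes 3 lay in naïve-dense windows (10.7%, 2.27 to 28.2), where 3.47% of all protein-coding genes lay. The 3 were ELF3, with a difference of 20, GCM1, a factor of trophoblast fusion, with 18, and S100P, a calcium-binding protein, with 11. The GCM1 window had 11 naïve BRG1 and 18 naïve BAF155 peaks, 6 BRM peaks, and 2 naïve and 1 primed SOX2 peak. GATA3, a trophoblast regulator of the same list, had a difference of −9. Over the list 16 genes lay in windows with a positive difference, 5 at 0 and 7 in windows with a negative one, with a median of 3, and 2 lay in primed-dense windows. No gene of the other lists lay in a naïve-dense window. This was 0 of 21 primed markers, of which 5 lay in primed-dense windows where 0.827% of all protein-coding genes lay, 0 of 14 primitive endoderm genes, 0 of 20 neuroectoderm genes and 0 of 14 streak and mesoderm genes. Each of these last 3 lists had 1 gene in a primed-dense window. FEZF2, POU3F2, NEUROG2, HAND2 and KDR, and NR2F2 of the trophoblast list, stood at −4, the edge of the primed-dense set. The tie rule alone left them out. With lists of this size, 0 genes allow shares of up to 14.3%, 21.4%, 15.0% and 21.4%.

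Gene starts and base composition set the windows apart as well. Protein-coding starts numbered 2.21 per naïve-dense window and 0.648 elsewhere, a ratio of 3.41 (3.15 to 3.68). No start lay in 56 naïve-dense windows (18.7%), against 65.0% of other and 62.3% of primed-dense windows. The median GC content was 48.4% (quartiles 45.0 and 51.8) against 39.8% in other and 41.0% in primed-dense windows, and CpG dinucleotides numbered 1.85 per 100 bp against 0.832. Within 5 Mb of a chromosome end lay 67 windows (22.3%), and 7.53% of the others. Whether GC content or gene density had a part in the BAF or BRM counts was not tested. The naïve-only regions themselves were not clearly more often at promoters, with 607 of 4217 (14.4%) against 13.6% elsewhere. The odds ratio was 1.07 (0.975 to 1.17). With promoters within 2 kb it was 1.15 (1.07 to 1.24), and with regions of 500 bp 0.875 (0.808 to 0.947). Naïve-only regions of naïve-dense windows were less often in introns (41.7% against 49.9%, odds ratio 0.717, 0.673 to 0.765). They were more often between genes (39.0% against 31.9%, odds ratio 1.37, 1.28 to 1.46).

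Motifs were searched on both strands in the central 200 bp of each region, with windows of equal length 2 kb to either side as background. They were GGGNGNGGC for KLF, GCCNNNGGC for TFAP2, CTTTGT or CATTGT for SOX, ATGCAAAT for the octamer, CCTGCTG for ZIC, CATTCC for TEAD and TCAAGGTCA for ESRR. KLF and TFAP2 matches can overlap, a motif names a family rather than one factor, and a match is no proof of binding. KLF letters stood in 10.4% of naïve-only regions of naïve-dense windows and 5.02% of their flanks, TFAP2 letters in 9.22% and 5.61%, TEAD letters in 12.6% and 9.37%, and octamers in 1.59% and 0.806%. SOX letters were as frequent in regions as in flanks, 17.9% and 17.7% (odds ratio 1.01, 0.918 to 1.11). In primed-only regions of primed-dense windows they stood in 34.3%, against 25.01% of flanks, and ZIC letters in 11.7% where naïve-dense windows had 6.95%. KLF, TFAP2, TEAD and octamer letters were above their flanks there as well. They stood in 5.88% against 3.27%, 5.50% against 4.21%, 15.4% against 11.6% and 3.52% against 1.92%.

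Against naïve-only regions in other windows, SOX letters were rarer in naïve-dense windows (17.9% against 22.6%, odds ratio 0.744, 0.685 to 0.808), as were octamers (odds ratio 0.549, 0.428 to 0.703). The flanks differed in the same way, 17.7% against 22.3% for SOX letters and 0.806% against 1.44% for octamers. Regions against their flanks therefore gave like odds ratios inside and outside, 1.01 and 1.02 for SOX letters and 1.99 and 2.01 for octamers. For KLF the odds ratio was 0.844 (0.761 to 0.935) and for TFAP2 0.838 (0.751 to 0.934). This lower share was not seen when mostly multi-copy regions were left out and windows chosen anew, as both ratios were then 1.01. Regions against their flanks gave lower odds ratios inside than outside, 2.21 and 3.40 for KLF and 1.71 and 2.47 for TFAP2. Flanks inside held more of these letters, 5.02% against 3.90% for KLF and 5.61% against 4.67% for TFAP2. These flank values were not repeated without multi-copy regions. Multi-copy regions, in which more than 50% of 32-base words occur more than once in hg38, made up 864 of the 4217 (20.5%, 19.3 to 21.7) against 14.1% of naïve-only regions elsewhere (odds ratio 1.57, 1.45 to 1.70) and 1.87% of primed-only regions in primed-dense windows. Of them 18.1% had BRM, and 22.7% of the rest. In the NPEPPS window on chromosome 17, all 12 naïve-only regions were multi-copy. A window near the centromere of chromosome 21, chr21:10700001-10800000, had 13 naïve BRG1 peaks and no peak of any other list, the only naïve-dense window without BAF155.

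Chromosome 19 stood out by number, with 64 naïve-dense windows, 10.9% of its 587 windows and 21.3% of the 300 (16.8 to 26.4), whereas it has 2.04% of all windows. Chromosome 17 followed with 28, chromosome 1 with 25 and chromosome 16 with 21, and chromosome 13 had 2. Chromosome 19 also held 7.49% of naïve-only, 5.85% of common and 1.47% of primed-only regions, and 7.72% of protein-coding genes. Of the 23 windows tied at 11 that were left out, 14 lay on chromosome 19. Its naïve-dense windows had 6.11 BRM peaks each against 5.06 on the other chromosomes, while the share of naïve-only regions with BRM was 21.8% on both. Their median GC content was 52.1% against 47.1%, with 3.41 and 1.89 gene starts per window. When chromosome 19 was left out of the ranking, the BRM ratio was 9.59 (9.08 to 10.1).

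**Figure D5:**
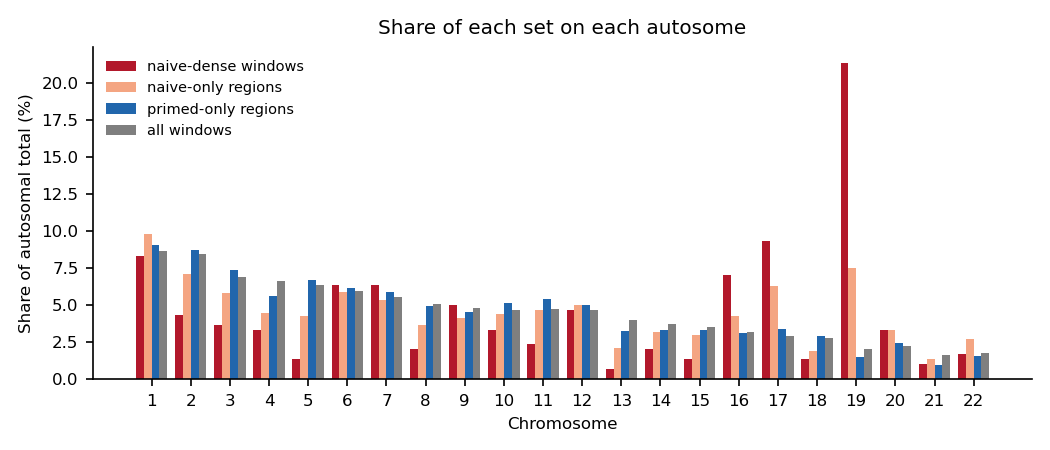
Share of naïve-dense windows, naïve-only regions, primed-only regions and all windows (y axis, in percent of the autosomal total) that lies on each autosome (x axis). Chromosome 19 holds 21.3% of naïve-dense windows, 7.49% of naïve-only regions, 1.47% of primed-only regions and 2.04% of all windows.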

How the data were processed

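Peaks of BRG1, BAF155, BRM and SOX2 ChIP in naïve and primed WIBR3 hESCs were analysed from 10 of 14 samples. The other 4 are input libraries that served as controls. According to the study's methods and the submitters' processing notes, reads were checked with FastQC 0.10.1, trimmed with trim_galore and aligned to hg38 with Bowtie2 2.3.4. Duplicates were removed with SAMtools 0.1.19 or PICARD, and MACS2 was run against the input for peak calling, in broad mode for BAF subunits and narrow mode for SOX2. The deposited lists give 0-based positions and, except for primed BRM and the second SOX2 libraries, the authors' score, fold enrichment over input (a linear ratio), and −log10 p and −log10 q. The fold and −log10 q were used to describe, rank or filter peaks, and the authors' score was not used further. Read totals per library are tabulated in the study's supplement and were not used here for any value. Where a list has no peak, the signal stayed under the caller's threshold, which is not a measured absence.

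Peaks were assigned to windows by midpoint. Shares carry exact Clopper-Pearson 95% intervals, rate ratios exact conditional binomial intervals and odds ratios Woolf intervals (0.5 added to each cell where a count was 0). Regions and windows of 1 library are not replicates, so no p-value is given. A count of 0 is given with the limit that 3 counts set. Genes and transcription start sites are from GENCODE release 44, with promoters within 1 kb of any transcript start and gene positions by the 5′ end. Overlap required 25% of either region. Multi-copy sequence was counted as 32-base words found more than once in hg38 on either strand. Windows named in the text are the 12 highest, the 5 longest runs and those with genes of the 6 lists, plus windows named for extreme counts, which were chosen after their values were seen. Sequences are those of the 6 highest windows, of which 1 is not reported here, and 3 added ones. Members and lists were chosen with earlier results of these data known. Scripts were run with Python 3.11.15, numpy 2.4.6, scipy 1.17.1, numba 0.67.0, pysam 0.24.0 and matplotlib 3.10.9, and were tested on simulated data. The alternatives tried were other overlap rules, stricter peaks, each subunit alone, lists of equal length, other grids and window sizes, other numbers of windows, leaving out chromosome 19, and other promoter and motif distances. After the data were seen, regions of fixed width and the removal of multi-copy regions were added.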

Additional observations from a re-analysis of the deposited data

Results flagged for a closer look

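Chromosome X was outside the choice of windows, which used autosomes. Ranked in the same way, 4 of its 1561 windows (0.256%) reached the lowest difference of the naïve-dense windows, against 323 of 28760 autosomal windows (1.12%), and this was noted as a signal in data that the comparisons did not use. The highest, chrX:131700001-131800000, had a difference of 14, with 14 naïve-only regions, no primed-only region and 1 naïve BRM peak. The others had differences of 12, 12 and 11 and held 5, 7 and 1 naïve BRM peaks. No control sample with a peak list was at hand to set a background.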

How the results depend on the processing

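No paired analysis was possible because the SOX2 libraries of a state gave identical lists and every other group had 1 library. Leaving out either SOX2 library gave 1.88 for primed and 5.91 for naïve SOX2, which the identical lists fix, so these were not counted. Of 201 values under other settings, 143 stayed within the interval of the reported value, or within 1.5 times of a count, 49 moved beyond it and 9 reversed. A reversal was counted only where the reported interval lay to one side of 1. The interval under the other setting was not considered, and it spanned 1 in all 9. The cause of these moves was not tested unless stated. Of the 30 Mb of naïve-dense windows, 2 Mb stayed at a fold of 4, 11.8 Mb at −log10 q of 3, 17.1 Mb with BRG1 alone, 13 Mb on a grid from position 50000, 16.35 Mb with 50 kb windows, 15.6 Mb with 200 kb windows and 15 Mb with 150 windows. A fold of 4 left 2848 naïve-only regions, so that ties decided most of the choice. It gave 4.48 for the ratio of naïve BRM per window, 0.865 for primed SOX2, which reversed, 1.36 for naïve SOX2, 2.33 for gene starts and 0 naïve markers, and placed 47.7% of windows on chromosome 1. The ratio of naïve BRM per window was 10.8 with BRG1 alone, 9.13 on the shifted grid, 10.4 and 8.67 with 50 kb and 200 kb windows, 10.9 and 9.03 with 150 and 600 windows, 9.003 without multi-copy regions and 3.57 for BRM peaks of fold 4. It reversed to 0 (0 to 2.13) with lists of equal length, because the naïve BRM list was then as short as the primed one, and the odds ratio of BRM at naïve-only regions, 1.81, then had an interval of 0.0870 to 37.8. Lists of equal length gave 1.55 for primed SOX2, and 50 kb windows 7.38 for naïve SOX2. The odds ratio of BRM at naïve-only regions was 1.23 when 50% of both regions had to be shared, 1.31 at a fold of 4, 1.55 at −log10 q of 3, 1.61 with BRG1 alone, on the shifted grid and with 200 kb windows, and 1.52 with regions of 500 bp. The promoter odds ratio, whose reported interval spans 1, turned below 1 in 6 settings, which were not counted as reversals. It was 0.850 at 50% of both regions, 1.31 at a fold of 4, 1.17 at −log10 q of 3, 0.9496 with BAF155 alone, 0.909 without chromosome 19, 0.875 with regions of 500 bp and 1.18 without multi-copy regions. Its interval lay above 1 at a fold of 4, at −log10 q of 3 and without multi-copy regions. The same held with BRG1 alone (1.14), 200 kb windows (1.13), 600 windows (1.08) and promoters within 2 kb (1.15). It lay below 1 at 50% of both regions and with regions of 500 bp. The KLF odds ratio reversed to 1.23 at a fold of 4, 1.05 at −log10 q of 3, 1.07 with BRG1 alone and 1.01 without multi-copy regions, and was 0.937 with 150 windows and 0.689 without chromosome 19. The TFAP2 odds ratio reversed to 1.23, 1.05 and 1.01 at a fold of 4, with BRG1 alone and without multi-copy regions. For SOX it was 0.651 with BRG1 alone and 0.684 with 200 kb windows. Gene starts had a ratio of 3.93 at −log10 q of 3, 4.93 with BRG1 alone and 3.08 without chromosome 19. Chromosome 19 held 32.3% of windows with BRG1 alone, 32% at 200 kb and 26.7% of 150 windows, and without it chromosome 1 led with 12%. Naïve markers numbered 4 in 150 and 14 in 600 windows.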

Other observations

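Of 504 autosomal zinc finger genes whose symbol begins with ZNF, 24 started in naïve-dense windows (4.76%), where 3.47% of all protein-coding genes did. Of the 24, 16 were on chromosome 19, which has 249 of the 504 such genes but 7.72% of all protein-coding genes. The shares above are therefore not matched by chromosome. On chromosome 19, 10.9% of windows were naïve-dense, with 3.41 protein-coding starts each against 2.41 in its other windows. Of its 249 ZNF genes 16 started in them, a smaller share than of all its protein-coding genes. The higher share of ZNF genes was thus reversed on that chromosome. In primed-dense windows 3 of the 504 started. The 11 naïve-dense windows of chromosome 19 with a ZNF gene held 148 naïve-only regions, of which 17.6% had a naïve BRM peak and 20.9% were mostly multi-copy. In all other naïve-dense windows these shares were 21.9% and 20.5%. Regions called by both subunits made up 49.4% of naïve-only regions in naïve-dense windows and 39.7% elsewhere, while 21.0% and 25.4% were called by BRG1 alone, values that the choice of windows used.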
